A study of Bos taurus with 12 samples.

Results

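DMKN and GRHL1, both genes of epithelial differentiation, were followed in the rumen wall of 4 Holstein dairy cows through a change of diet. Every probe set that the array's annotation assigned to DMKN or GRHL1 alone was taken, which gave 3 of the 24016 probe sets other than controls and 2 of the 9155 genes named. DMKN had 1 probe set, Bt.23455.1.S1_at. GRHL1 had 2, called here probe set A (Bt.13545.1.S1_at) and probe set B (Bt.16580.3.A1_at) and given separately. Each cow gave rumen papillae from the ventral sac at week 0 on a high forage diet, at week 1 of a grain challenge and at week 3 of the challenge, so that each week had 4 arrays from the same 4 animals. The labels give no cows kept on forage throughout, and diet and calendar week therefore cannot be told apart. The deposited values are log2 and centred, every probe set having 0 as the median of its 12 values, and a value therefore says how an array compares with the others but not how much RNA there was. For that reason the presence of epithelial markers in the tissue could not be checked, and no level can be compared between genes.

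Rumen papillae are covered by a stratified, keratinizing epithelium that absorbs the short-chain fatty acids of fermentation. Its cells divide in the basal layer and mature on their way to the surface, where they cornify. DMKN encodes dermokine, a protein that keratinocytes secrete in the upper layers of the epidermis in mice and humans, and its gene lies beside those of 2 other secreted epidermal proteins, KRTDAP and SBSN. GRHL1 encodes a transcription factor of the grainyhead family, which controls genes of epithelial junctions and barriers. In mice GRHL1 acts on the gene of the desmosomal cadherin DSG1 and is needed for normal hair and epidermis.

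By their weekly means both genes were lowest at week 1 and were back near their forage values, or part of the way there, at week 3. An exception within the cows was GRHL1 probe set A in cow 1, which was highest at week 1. Both genes were chosen by these weekly differences, in all 12 arrays, so the differences are given as a description and no test of them is reported. DMKN was at 0.99, 0.54, 0.47 and 0.44 in cows 1 to 4 at week 0. At week 1 it was at -0.60, -1.82, -1.31 and -0.98 in the same cows, and at week 3 at 0.14, 0.21, -0.29 and -0.14. The 3 weeks did not overlap in this gene, with week 0 on top, week 3 between and week 1 at the bottom. The weekly means were 0.61 ± 0.26, -1.18 ± 0.51 and -0.02 ± 0.24 at weeks 0, 1 and 3 (SD, n = 4 cows).

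**Figure D1:**
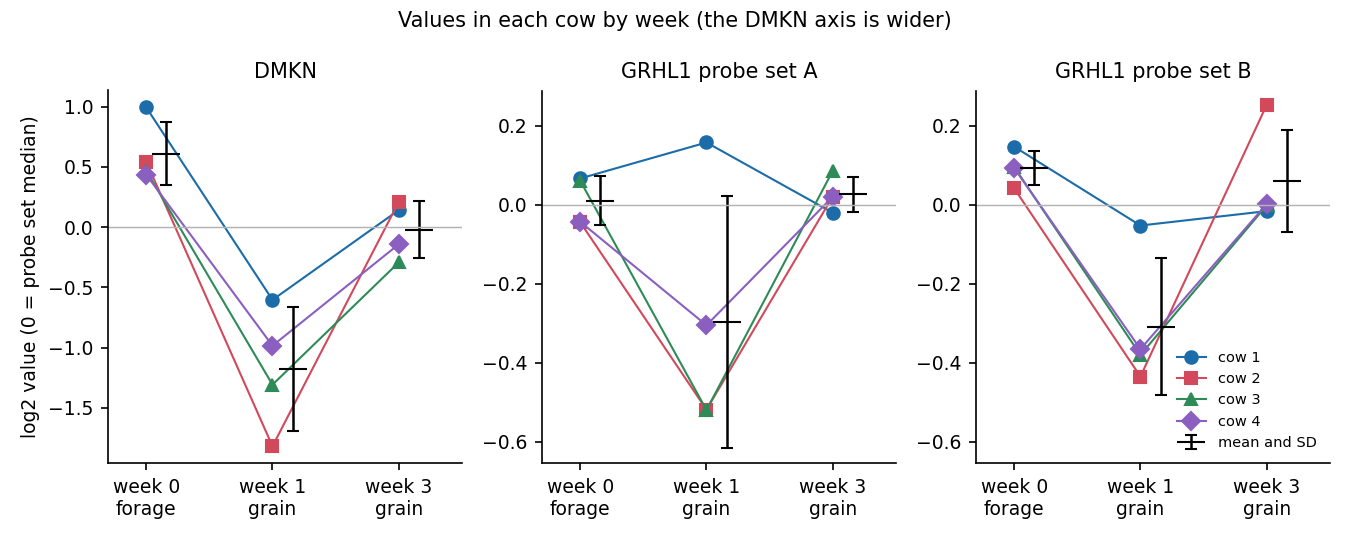
Log2 value of DMKN and of both GRHL1 probe sets at weeks 0, 1 and 3, with a line per cow and the mean ± SD over 4 cows in black; the DMKN panel has a wider axis. DMKN was lower at week 1 than at week 0 in all 4 cows, while the GRHL1 values of cow 1 at week 1 stand above those of the other cows.

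Between week 1 and week 0 the DMKN difference was -1.79 ± 0.24 (SE, n = 4 cows), a factor of 3.45, and it was the eighth in size among 24016 probe sets. The change was -1.60, -2.36, -1.78 and -1.42 in cows 1 to 4. Week 1 did not overlap week 0 in DMKN. Of all probe sets 142, or 0.591%, had week 1 entirely below week 0 and 503, or 2.09%, entirely above it. Between week 3 and week 1 DMKN was higher by 1.16 ± 0.24, a factor of 2.23, with 0.75, 2.03, 1.01 and 0.84 in the 4 cows. Probe sets whose week 3 lay entirely above week 1 were 257, or 1.07%, and those entirely below were 331, or 1.38%. The later difference amounted to 64.7% of the earlier one on the log2 scale. Between week 3 and week 0 a difference of -0.63 ± 0.24 was left, a factor of 1.55, with -0.85, -0.33, -0.76 and -0.58 in cows 1 to 4. Week 3 was entirely below week 0 in 181 probe sets, or 0.754%, and entirely above in 654, or 2.72%. Cow 2 had both the largest change at week 1 and the smallest one left at week 3.

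The weekly differences of GRHL1 were smaller than those of DMKN, and its probe sets differed in cow 1. Probe set A was at 0.07, -0.04, 0.06 and -0.04 in cows 1 to 4 at week 0. At week 1 it was at 0.16, -0.52, -0.52 and -0.31, and at week 3 at -0.02, 0.02, 0.09 and 0.02. Weeks 1 and 0 overlapped because of cow 1 alone, whose value at week 1 was above all values of weeks 0 and 3. Probe set B was at 0.15, 0.04, 0.10 and 0.09 at week 0, at -0.05, -0.44, -0.38 and -0.37 at week 1 and at -0.02, 0.25, -0.0017 and 0.0017 at week 3. In this probe set all 4 arrays of week 1 lay below the 8 others, with cow 1 nearest to them.

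The week 1 to week 0 difference of GRHL1 was -0.31 ± 0.13 in probe set A and -0.40 ± 0.09 in probe set B (SE, n = 4 cows), factors of 1.24 and 1.32. In probe set A 3 of 4 cows were lower at week 1, by -0.47, -0.58 and -0.26 in cows 2 to 4 against 0.09 in cow 1. In probe set B 4 of 4 were lower, with -0.20 in cow 1 and between -0.48 and -0.46 in the others. Between week 3 and week 1 the differences were 0.32 ± 0.13 in A and 0.37 ± 0.09 in B. Cow 1 had the smallest of these changes in both, -0.18 in A and 0.04 in B, while cow 2 had 0.54 and 0.69. Between week 3 and week 0 the differences were 0.02 ± 0.13 in A and -0.03 ± 0.09 in B, each smaller than its error, and the weeks overlapped in both probe sets. In A 3 of 4 cows were higher at week 3 and cow 1 was lower, by -0.09. In B 3 of 4 were lower, by -0.16, -0.10 and -0.09 in cows 1, 3 and 4, against 0.21 in cow 2. The sign of the week 3 to week 0 difference of means changed in some settings, with ranges of -0.01 to 0.06 in A and -0.12 to 0.01 in B.

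**Figure D2:**
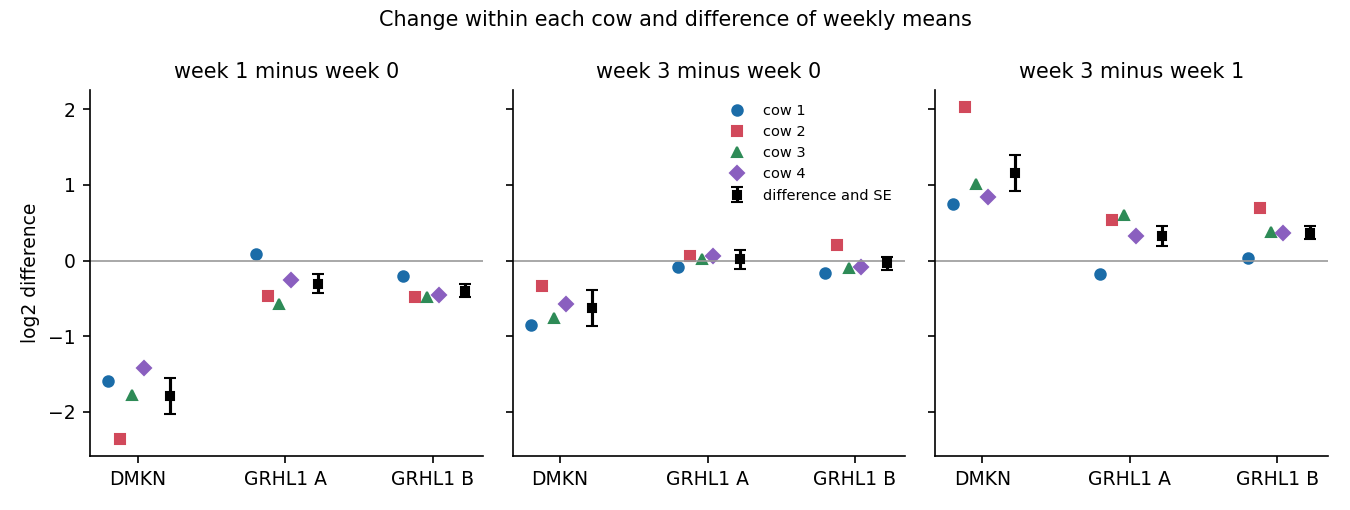
Log2 difference between weeks for DMKN and the GRHL1 probe sets, with a coloured point per cow and the difference of weekly means ± SE in black. At week 1 minus week 0 all points lie below 0 except that of cow 1 in GRHL1 probe set A, and at week 3 minus week 0 DMKN alone is below 0 in all 4 cows.

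Among all probe sets, 50 (0.208%) had their 4 arrays of week 1 below all 8 arrays of weeks 0 and 3, and 83 (0.346%) had them above. The 50 included DMKN and GRHL1 probe set B, and 38 of them named 1 gene. Genes of the 50 named here were picked after their values were seen. By the week 1 to week 0 difference DMKN was next among the named ones after LPO, the secreted lactoperoxidase, at -3.18 and the kallikrein-related peptidase KLK10 at -1.96. DMKN had a gap of 0.31 between its highest value at week 1 and its lowest at the other weeks, and GRHL1 probe set B a gap of 0.04. Others of the 50 were S100A9, of which a second probe set is given further on, at -0.49, the transcription factor PBX2 at -0.52 and RAB27B, a GTPase of secretory vesicles, at -0.41.

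DMKN and GRHL1 varied together over the arrays, and both were chosen for the same weekly pattern. With each cow's mean subtracted, Pearson's r between DMKN and GRHL1 was 0.76 for probe set A and 0.91 for probe set B over the 12 arrays, which come from 4 cows and are not independent. Of 13289 probe sets naming 1 other gene, 264 (1.99%) were more like DMKN than GRHL1 probe set A was, and 20 (0.151%) more than probe set B. Between the GRHL1 probe sets r was 0.89. With the weekly means removed as well, r was 0.55 and 0.75 between DMKN and probe sets A and B, and 0.77 between A and B. At that step 941 (7.08%) and 233 (1.75%) of the 13289 probe sets were more like DMKN than A and B were.

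**Figure D3:**
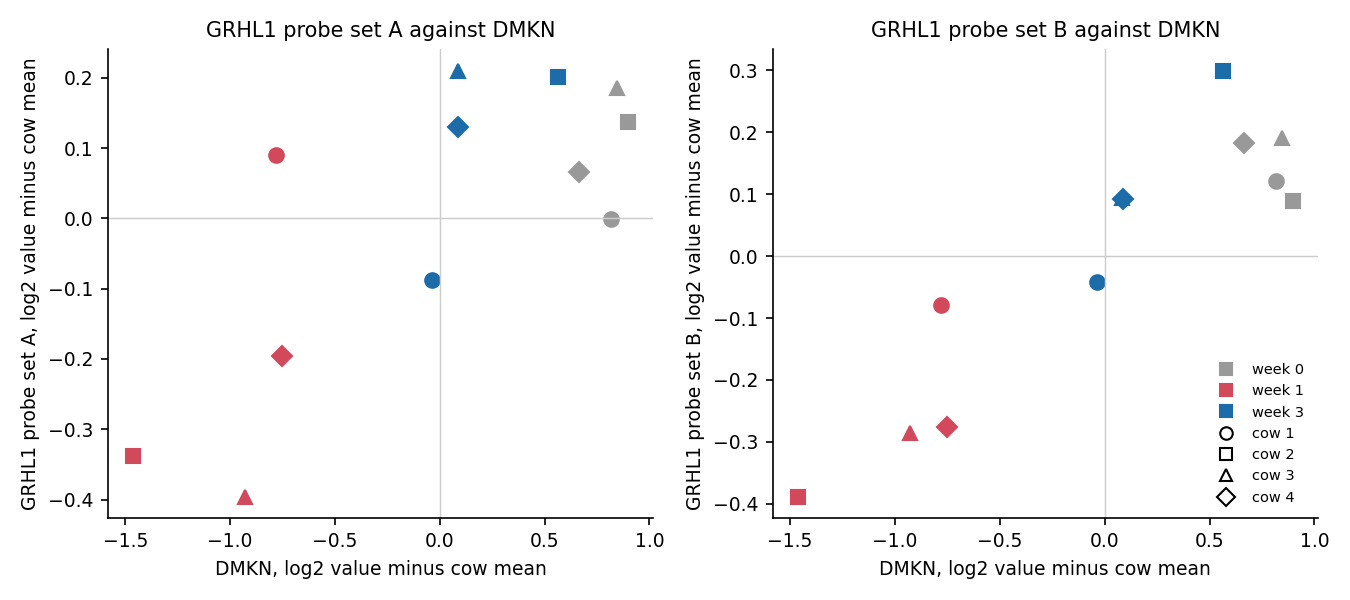
GRHL1 probe sets A (left) and B (right) against DMKN, each as log2 value minus the cow's mean over 3 weeks, with colour for the week and shape for the cow. The 4 points of week 1 lie at the lower left in B (r = 0.91), whereas in A the week 1 point of cow 1 lies above 0 (r = 0.76).

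Differences between the animals are not weekly differences and were tested, although a choice of genes by weekly difference may also favour a small spread between cows. A moderated F test over cows with the week as a term (limma, Benjamini-Hochberg over 24016 probe sets) called 430 probe sets, or 1.79%, against 101 to 375 with 1 cow or array left out and 65 when 3 arrays whose hybridization controls were high, described at the end, were omitted. DMKN was not among them (adjusted p = 0.625), nor were GRHL1 probe sets A and B (adjusted p = 0.895 for both). Leaving out 1 cow or 1 array gave adjusted p-values from 0.0862 to 1 for DMKN, from 0.643 to 1 for A and from 0.712 to 1 for B. The mean of DMKN over 3 weeks was 0.18 in cow 1, -0.36 in cow 2, -0.38 in cow 3 and -0.23 in cow 4. The weeks took up 85.0% of the variance of DMKN, 45.1% of that of GRHL1 probe set A and 73.2% of that of B, which the choice of the genes favoured, against a median of 12.4% over all probe sets. A large share of the weeks leaves less for the cows, so the cow share was taken of the variance that the weeks did not hold. It was 51.2% in DMKN, 32.3% in probe set A and 19.5% in probe set B, against a median of 31.7%.

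Other genes of epithelial differentiation were described in 6 lists, holding 207 symbols, of which 93 were measured. Neither KRTDAP nor SBSN, the neighbours of DMKN, nor the grainyhead factors GRHL2 and GRHL3 had a probe set by name. No probe set was called between any 2 weeks (limma, adjusted p under 0.05; 0 of 24016, or 0%, in each of the 3 comparisons), so no list member was. At an unadjusted p under 0.05 there were 1237 probe sets (5.15%) between weeks 1 and 0, 933 (3.88%) between weeks 3 and 0 and 1172 (4.88%) between weeks 3 and 1. With the cow as a block, the calls were 2, 0 and 0, and the counts at an unadjusted p were 1828, 1469 and 1821. Without the week 1 array of cow 1, the array on which GRHL1 was highest for its week, 45 probe sets were called between weeks 1 and 0 and 38 between weeks 3 and 1, and 10340 and 4293 had an unadjusted p under 0.05. The list genes below are given with this unadjusted threshold, from the model without the cow, and none of them holds it after adjustment.

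Between weeks 1 and 0, 9 of the 93 list genes were lower and 1 was higher at an unadjusted p under 0.05, against 2.85% and 3.76% of the 9155 named genes. The median difference over all named genes was 0.02, with 3357 of them lower and 5798 higher. Blocking on the cow gave 16 in place of these 10. Omitting cow 1 gave 17 and omitting its week 1 array alone gave 30, while omitting cow 3 gave 5 and its week 0 array alone 6. The count over all 24016 probe sets moved in these settings too, from 1237 to 1828 with the block. It ranged from 838 to 10340 with 1 cow or array left out, the 10340 being without week 1 of cow 1. The lists were drawn up with results of these data known, and their counts are not independent evidence.

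In the list of cornified envelope and secreted late proteins 8 of 11 measured genes were lower at week 1, with a median of -0.11, and 3 of them passed the unadjusted threshold. They were S100A9, a calcium-binding protein of neutrophils and stressed keratinocytes, at -0.86 ± 0.27 (SE, n = 4 cows), TGM3, a transglutaminase that cross-links the cornified envelope, at -0.45 ± 0.18, and LYPD3, a surface protein of suprabasal keratinocytes, at -0.35 ± 0.13. ECM1, a secreted glycoprotein of skin, was at -0.11 ± 0.05. In the list of epidermal proteases and inhibitors 8 of 12 were lower, with a median of -0.23 that was negative in 4 of 4 cows. SERPINB1, an inhibitor of neutrophil serine proteases, was at -2.25 ± 0.72 and KLK10 at -1.96 ± 0.81, each lower in 4 of 4 cows. CTSD, a lysosomal protease, was at -0.25 ± 0.13 and the protease inhibitor CST6 at 0.10 ± 0.05.

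Among the epithelial transcription factors 10 of 20 measured genes were lower at week 1, with a median of -0.0003. ELF5, an ETS factor, was at -0.59 ± 0.21 (SE, n = 4 cows) and KLF5, a Krüppel-like factor of dividing epithelial cells, at 0.15 ± 0.06, and both passed the unadjusted threshold. ELF3 was at 0.15 ± 0.09 and TFAP2A at -0.13 ± 0.09. In the list of genes linked to grainyhead factors and epithelial junctions 17 of 25 were lower, with a median of -0.03. RAB25, a GTPase of epithelial vesicle recycling, was at -0.38 ± 0.13 and SFN, the epithelial 14-3-3 sigma, at -0.34 ± 0.12. DSC1, a desmocollin, was at -0.62 ± 0.37, and MAL2, a protein of apical transport, at 0.13 ± 0.08.

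Barrier lipid enzymes and keratins had medians near 0. Of 11 lipid enzymes 5 were lower at week 1, with a median of 0.02, and SPTLC2, a subunit of the first enzyme of sphingolipid synthesis, was at -0.30 ± 0.11 (SE, n = 4 cows; unadjusted threshold passed). SULT2B1, which makes cholesterol sulfate, was at -0.31 ± 0.17, the glucosylceramide synthase UGCG at 0.17 ± 0.09 and the elongase ELOVL4 at -1.68 ± 1.01. Of 14 keratins 6 were lower, with a median of 0.02, and none passed the unadjusted threshold. KRT19 was at 0.23 ± 0.12, KRT17 at -0.11 ± 0.06, KRT6B at -0.15 ± 0.12 and KRT7 at 0.05 ± 0.04.

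**Figure D4:**
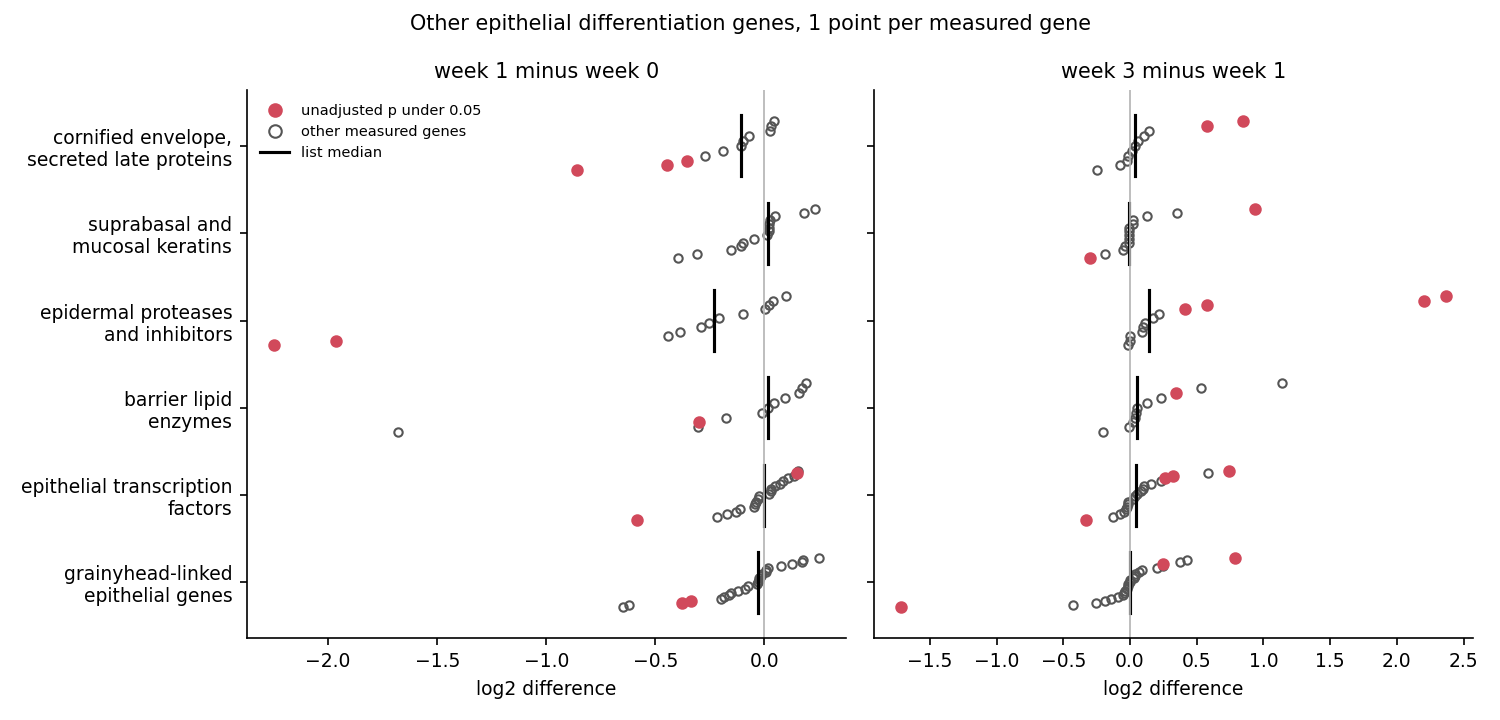
Log2 difference of week 1 minus week 0 (left) and week 3 minus week 1 (right) for the 93 measured genes of 6 epithelial lists, 1 point per gene, filled where the unadjusted p was under 0.05, with the list median as a bar. Filled points are 9 lower and 1 higher on the left, and 13 higher and 3 lower on the right.

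Between weeks 3 and 1, comparisons that share the week 1 arrays with those above, 13 of the 93 list genes were higher and 3 lower at the unadjusted threshold, against 3.68% and 3.16% of named genes. Omitting cow 2 gave 5 in place of these 16, omitting cow 3 gave 8 and omitting its week 1 array alone gave 10. Over all 24016 probe sets the 1172 at this threshold moved as well, to between 770, without cow 3, and 4293 with 1 cow or array left out. The median over all named genes was -0.01, with 3738 of 9155 higher and 5417 lower. Of the proteases and inhibitors 10 of 12 were higher, with a median of 0.14, among them KLK10 at 2.37 ± 0.81 (SE, n = 4 cows), SERPINB1 at 2.20 ± 0.72, SPINT1, an inhibitor of membrane serine proteases, at 0.58 ± 0.24 and PRSS8, such a protease, at 0.41 ± 0.17. Of the cornified envelope list 7 of 11 were higher, with a median of 0.04. S100A9 was at 0.85 ± 0.27, TGM3 at 0.58 ± 0.18, TGM1, another transglutaminase of the envelope, at 0.14 ± 0.12 and S100A14 at -0.25 ± 0.14. SPTLC2 was at 0.35 ± 0.11, SPTLC1, its partner subunit, at 0.13 ± 0.08, SULT2B1 at 0.23 ± 0.17 and the sphingomyelinase SMPD1 at 0.05 ± 0.04, in a list with 9 of 11 higher and a median of 0.05.

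Among transcription factors 12 of 20 genes were higher at week 3 than in week 1, and the median was 0.05. ELF5 was at 0.74 ± 0.21 (SE, n = 4 cows), HOPX, a homeodomain protein of differentiating keratinocytes, at 0.32 ± 0.11, OVOL1, a zinc finger factor that ends keratinocyte division, at 0.26 ± 0.10 and CEBPG at -0.33 ± 0.14. In the junction list 11 of 25 were higher, with a median of -0.0031. ERBB3, a growth factor receptor whose 2 probe sets disagreed in sign, was at 0.78 ± 0.21, the adhesion protein EPCAM at 0.25 ± 0.09 and P-cadherin, CDH3, at 0.37 ± 0.17. Of 14 keratins 5 were higher, with a median of -0.01, KRT23 at 0.94 ± 0.38, KRT78 at 0.13 ± 0.09, KRT19 at -0.30 ± 0.12 and KRT7 at -0.04 ± 0.04. DSG1, the target of GRHL1 in mice, was at -0.65 ± 0.72 between weeks 1 and 0, at -2.37 ± 0.72 between weeks 3 and 0 and at -1.72 ± 0.72 between weeks 3 and 1. Its mean was thus lowest at week 3, where the GRHL1 means differed from week 0 by less than their error. With each cow's mean subtracted, r of DSG1 with DMKN over the 12 arrays was 0.13. A link between DSG1 and GRHL1 in these arrays was not tested.

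At week 3 the mean of DMKN was still below week 0, while the GRHL1 means differed from week 0 by less than their error. Between weeks 3 and 0, 4 of the 93 list genes were higher and 2 lower at the unadjusted threshold, against 3.13% and 1.89% of named genes. Of all named genes 5906 of 9155 were higher at week 3 than at week 0 and 3249 lower. Of the transcription factors 16 of 20 were higher, with a median of 0.06 against 0.02 over all named genes. HOPX was at 0.46 ± 0.11 (SE, n = 4 cows), OVOL1 at 0.24 ± 0.10, KLF5 at 0.13 ± 0.06 and PRDM1, a repressor in terminal differentiation, at 0.28 ± 0.15. In the junction list, 13 of 25 lower with a median of -0.01, ERBB3 was at 0.71 ± 0.21, SFN at -0.35 ± 0.12 and the polarity protein LLGL2, whose 2 probe sets disagreed in sign, at -0.38 ± 0.20. Of the cornified envelope list 8 of 11 were lower, with a median of -0.05, as in LYPD3 at -0.25 ± 0.13, S100A16 at -0.34 ± 0.21, S100A14 at -0.23 ± 0.14 and ECM1 at -0.07 ± 0.05.

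The remaining lists held no gene past the unadjusted threshold between weeks 3 and 0. Their counts of higher genes stand beside 5906 of 9155 over all named genes. Of the proteases and inhibitors 9 of 12 were higher, with a median of 0.03, CST6 at 0.09 ± 0.05 (SE, n = 4 cows), CTSV at 0.11 ± 0.13, KLK4 at 0.04 ± 0.05 and SPINT1 at 0.19 ± 0.24. Of the lipid enzymes 7 of 11 were higher, with a median of 0.05, SPTLC1 at 0.14 ± 0.08, UGCG at 0.16 ± 0.09, ELOVL7 at 0.69 ± 0.51 and ELOVL1 at -0.15 ± 0.14. Of the keratins 9 of 14 were higher, with a median of 0.01. KRT17 was at -0.11 ± 0.06, KRT23 at 0.54 ± 0.38, KRT4 at 0.04 ± 0.04 and KRT3 at -0.10 ± 0.06, while its 3 further probe sets went the other way.

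The genes most like each member were taken by Pearson's r over the 12 arrays with each cow's mean subtracted, among 13289 probe sets naming 1 other gene. A gene with several probe sets stands by the one of most extreme r, and r of its others is not given. Among the genes named, B2M, ADPRS, TRUB2 and FAM149B1 had 3 probe sets each. Over so many probe sets high values occur in number, and 26, 59 and 57 of them had an r above 0.9 with DMKN and with GRHL1 probe sets A and B. Most like DMKN were B2M, the light chain of class I MHC molecules, ADPRS, an ADP-ribose hydrolase, and HOMER2, a scaffold protein (r of 0.95 each), then B4GAT1, a glycosyltransferase (r = 0.94), and MALL, a membrane raft protein (r = 0.94). With the values as deposited, r was lower, at 0.58, 0.53, 0.88 and 0.63 for B2M, ADPRS, HOMER2 and B4GAT1. HOMER2 was at -0.50 ± 0.10 (SE, n = 4 cows) between weeks 1 and 0, MALL at -0.28 ± 0.10 and B2M at -0.47 ± 0.32. Most opposite were TRUB2, a pseudouridine synthase (r = -0.96), the transport ATPase ATP13A3 (r = -0.95) and GHITM, a mitochondrial membrane protein (r = -0.95), of which ATP13A3 was at 0.56 ± 0.11 between weeks 1 and 0.

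Most like GRHL1 probe set A were TNFRSF1A, a receptor of tumor necrosis factor (r = 0.96), and TTC7A, TAPBP, RGL2 and GK, the glycerol kinase (r of 0.95 each). GK was at -0.85 ± 0.37 (SE, n = 4 cows) between weeks 1 and 0 and at 1.19 ± 0.37 between weeks 3 and 1. With the values as deposited, r was 0.59 for TAPBP. Most opposite were CSTF3 (r = -0.97), EIF2B3 (r = -0.96) and FAM149B1 (r = -0.95). Most like probe set B were ACOX3, a peroxisomal oxidase of branched fatty acids (r = 0.97), SPTLC2 (r = 0.96), SERPINB1 (r = 0.95), TRAF3IP2, an adaptor of interleukin 17 signalling (r = 0.95), and GNA15, a G protein subunit (r = 0.95). SPTLC2 and SERPINB1 are thus list genes that also followed GRHL1, SERPINB1 with its second probe set at -0.84 ± 0.29 between weeks 1 and 0. Most opposite to B were the vasodilator peptide gene ADM (r = -0.96), TRUB2 (r = -0.95) and GEMIN6 (r = -0.93), with ADM at 0.50 ± 0.15. As deposited, r was 0.71 for ACOX3, 0.66 for GNA15 and -0.68 for GEMIN6. TRUB2 stood at the opposite end for both DMKN and probe set B.

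**Figure D5:**
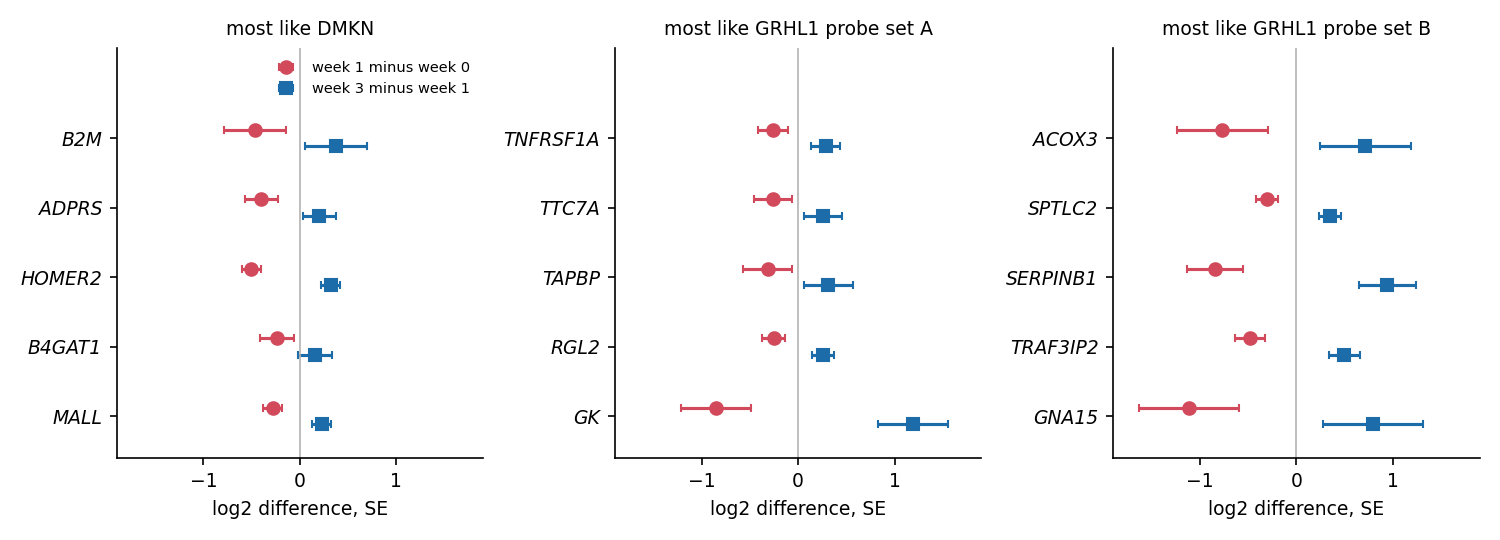
Log2 difference ± SE of the 5 genes most like DMKN and each GRHL1 probe set, week 1 minus week 0 as circles and week 3 minus week 1 as squares. All 15 lie below 0 in the first and above 0 in the second comparison, as a choice by likeness to the members gives, with GK at -0.85 and 1.19 in the middle panel.

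Genes lying next to the members in the ARS-UCD2.0 gene table, 5 protein-coding genes on either side, were picked after the values of the members were seen. Of the 10 around DMKN 3 were measured, and at week 1 against week 0 they were between -0.06 and 0.07, with FFAR3, a receptor for short-chain fatty acids, at 0.03 ± 0.03 (SE, n = 4 cows). Of the 10 around GRHL1 8 were measured, between -0.53 and 0.99, with 3 lower. Of these, 1 passed an unadjusted p under 0.05, ODC1, the ornithine decarboxylase of polyamine synthesis, which was higher at week 1 by 0.99 ± 0.26, opposite to GRHL1.

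Markers of the basal layer were mostly lower at weeks 1 and 3 than at week 0. Those of fibroblasts and matrix were mixed at week 1 and mostly higher at week 3. None of these markers had an adjusted p under 0.05. In bulk tissue fewer cells of a type and less RNA per cell cannot be told apart. Of 8 measured markers of the basal epithelial layer 6 were lower at week 1 than at week 0, and the mean of the list per array ranged from -0.11 to 0.10 at week 1 against 0.12 to 0.26 at week 0. At week 3 it ranged from -0.21 to -0.01, so that the basal markers stayed low where DMKN and GRHL1 were higher again. At the unadjusted threshold 3 of the 8 were lower at week 1, and 4 were lower and 1 higher at week 3 against week 0. Of all named genes, 2.85% were lower and 3.76% higher at that threshold at week 1, and 1.89% and 3.13% at week 3. Of 16 markers of fibroblasts and matrix 10 were higher at week 1 than at week 0, beside 5798 of 9155 over all named genes. The 6 lower ones were DCN, at -0.65, LUM, VIM, THY1, PDGFRA and FBLN1. At week 3 14 of 16 were higher than at week 0, beside 5906 of 9155. At that threshold 7 were higher and 1, DCN, lower between weeks 1 and 0, with a list median of 0.29. Between weeks 3 and 0, 8 were higher and 0 lower, with a list median of 0.37. Their list means ranged from -0.25 to 0.26 at week 1 against -0.34 to 0.02 at week 0, and from 0.11 to 0.24 at week 3.

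Markers of leukocytes and of vessels had medians close to that of all named genes, of which 5798 of 9155 were higher at week 1 than at week 0. At week 3 against week 0, 5906 of 9155 were higher. A median near that of all genes does not show that single markers were unchanged. Among 20 leukocyte markers the median was 0.02 at week 1, 11 being higher at week 1 and 15 at week 3 than at week 0. At the unadjusted threshold 2 leukocyte markers were higher and 0 lower at week 1, and 1 higher and 0 lower at week 3, against week 0. The leukocyte list means ranged from -0.18 to 0.13 at week 1 against -0.40 to 0.28 at week 0, and from -0.12 to 0.36 at week 3. Among 15 markers of vessels and smooth muscle the median was 0.03 at week 1, 9 being higher at week 1 and 9 at week 3 than at week 0. At the unadjusted threshold 0 vessel markers were higher and 2 lower at week 1, and 0 higher and 1 lower at week 3, against week 0. The shares of all named genes at this threshold are those given with the basal markers. The vessel list means ranged from -0.13 to 0.16 at week 1 against -0.06 to 0.20 at week 0, and from -0.07 to 0.03 at week 3. Whether any marker was absent cannot be read from values centred per probe set, and the part of these shifts in the values of DMKN and GRHL1 was not tested.

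The controls added at hybridization were high on 3 arrays, week 0 and week 1 of cow 1 and week 0 of cow 2, with means of 0.48 to 0.72 against -0.32 to 0.05 on the other 9. The array on which GRHL1 departed least at week 1 is one of them. Without the 3 arrays week 0 held only cows 3 and 4 and week 1 only cows 2 to 4, so the weeks no longer compared the same animals. The week 1 to week 0 difference was then -1.82 ± 0.25 in DMKN, -0.46 ± 0.07 in GRHL1 probe set A and -0.49 ± 0.08 in probe set B (SE). The week 3 to week 1 difference was 1.35 ± 0.21, 0.47 ± 0.06 and 0.45 ± 0.07. The week 3 to week 0 difference of DMKN was then -0.47 ± 0.23. For 3 control transcripts with probe sets at both ends, the mean 3′ minus 5′ value ranged from -0.06 to 0.05 at week 0. It ranged from -0.08 to 0.02 at week 1 and from -0.01 to 0.05 at week 3. Each probe set is centred on its own median, so these values compare arrays only and do not say how intact the RNA was.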

How the data were processed

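Total RNA of rumen papillae was labelled with biotin and hybridised to Affymetrix bovine arrays, 1 array per cow and week, per the labels' protocols. The deposited log2 values came from GCRMA, which corrects background and normalizes, per the submitters' processing notes. The sources used here do not give its version. Base 2 is inferred, since values of a single probe set spanned up to 11.2, more than a 16-bit scanner could give on the natural log scale. The deposited log2 values have a median of 0 in every probe set, so no filter on level was possible. Control probe sets (112) were left out. Of the rest 13292 named 1 gene, 86 several and 10638 none, and symbols were updated through the ARS-UCD2.0 gene table. No genome build goes with the values, so no coordinates are given.

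Week means were compared in 1 limma 3.58.1 model (R 4.3.3, lmFit and eBayes, two-sided) over all 12 arrays and 24016 probe sets, with Benjamini-Hochberg adjustment. The week was its only term, so it did not use the pairing of arrays by cow. The model with the cow as a block was an alternative. The difference between cows was tested with an F test in a model with week and cow. SE is the standard error of the model, and SD is over 4 cows. Replicates are separate animals, and the number of arrays limits the precision. The cow numbers pair the arrays, being the same animals, whose deviations from the weekly means correlated at 0.30 to 0.69 within and -0.59 to 0.07 between cows. A gene in a list stands by its probe set of largest SD, and a gene named for its likeness by its probe set of most extreme r. Named genes were DMKN, GRHL1, the 5 most and 3 least alike genes per member probe set, up to 4 genes of smallest p per epithelial list and comparison, and DSG1, GRHL2, GRHL3, SBSN and KRTDAP where measured. The members and lists were chosen with earlier results of these data known. The fits were tested on simulated data of independent arrays without differences between cows, which does not cover the pairing of the real arrays. Alternatives were quantile normalization, subtracted array medians, the cow as a block, array weights, a filter on SD, each cow or array left out, the 3 arrays of high hybridization controls left out, all probe sets of a list, and other measures of likeness.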

Additional observations from a re-analysis of the deposited data

Results flagged for a closer look

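In groups of 4 arrays, the array farthest out was compared with the others by its gap as a share of the group's range, and 14 of 216 groups of the named genes held an outlying array. Chance flags about 1 in 20 groups. GRHL1 probe set B at week 3 was at 0.25 in cow 2, against -0.02 to 0.0017 in the other cows. DMKN had no such array, with its widest gap, 0.81 of the range, at week 0, where cow 1 was at 0.99.

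In cow 1 at week 1 TGM3 was at 0.0195, against -0.74 to -0.67 in the other cows. In the same array ELF3 was at 0.45, LLGL2 at 0.36 and EPCAM at -0.11, against at most 0.03, 0.01 and -0.15 in the others. At week 3 of cow 1 ELOVL4 was at -1.69 and ACOX3 at 0.77. In cow 2 LYPD3 was at -0.64 and ELOVL1 at -0.60 at week 1, and SULT2B1 was at 0.48 at week 3. In cow 3 CEBPG was at 0.38 at week 1, and SMPD1 at 0.0914 and ELF3 at 0.18 at week 3. In cow 4 TGM3 was at -0.49 at week 0, against 0.01 to 0.11 in the other cows.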

How the results depend on the processing

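The differences of DMKN and of both GRHL1 probe sets moved by less than 1 SD between cows in all 22 alternatives run. Over them the week 1 to week 0 difference ranged from -1.98 to -1.57 in DMKN, -0.46 to -0.22 in GRHL1 probe set A and -0.52 to -0.36 in B. The cow as a block left the differences as they were and gave an SE of 0.19 for DMKN, 0.12 for A and 0.09 for B. Of the likenesses of named genes none changed sign, but each was weaker with the values as deposited. The 7 that weakened most were at 0.58 for B2M, 0.53 for ADPRS, 0.63 for B4GAT1, 0.59 for TAPBP, 0.71 for ACOX3, 0.66 for GNA15 and -0.68 for GEMIN6. Counts of probe sets moved more, and the cause was not tested.

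Calls between weeks 1 and 0 (0) were 2 with the cow as a block, 9970 with array weights, 5 without the 3 arrays of high hybridization controls, 2 without the 40% of probe sets of lowest SD, and 1 with the block and without the 3 arrays, the last chosen after seeing the data. Calls between weeks 3 and 0 (0) were 2 after quantile normalization, 7 with weights and 6 without the 3 arrays, and between weeks 3 and 1 (0) they were 97 with weights and 12 without the 3 arrays. Leaving out 1 cow or array gave 0 to 45, 0 to 2 and 0 to 38 calls.

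At an unadjusted p under 0.05 the counts for weeks 1 and 0, 3 and 0, and 3 and 1 were 12039, 3600 and 8312 with weights. With the block 1469 and 1821 were found in the last pair of comparisons. Without the 3 arrays 4252 were found between weeks 1 and 0 and 2988 between weeks 3 and 1, or 2377 and 2832 with the block as well. Leaving out 1 cow or array gave 838 to 10340, 594 to 1160 and 770 to 4293. The highest values of the first and last of these ranges came without week 1 of cow 1, and the lowest of the last pair without cow 2 between weeks 3 and 0 and without cow 3 between weeks 3 and 1.

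List genes called (0) were 22 and 4 of 93 with weights between weeks 1 and 0 and between weeks 3 and 1, where 9970 and 97 of all 24016 probe sets were called. At the unadjusted threshold 12039 and 8312 of all probe sets passed with weights in these comparisons, so the list counts moved together with those of all probe sets. At the unadjusted threshold the 10 between weeks 1 and 0 were 16 with the block, 29 with weights, 16 without the 3 arrays, 21 with both, and 5 to 30 with 1 cow or array left out. The 6 between weeks 3 and 0 were 10 after quantile normalization and 15 with weights, and 4 to 8 with 1 left out. The 16 between weeks 3 and 1 were 30 with weights, 27 with the block and without the 3 arrays, and 5 to 24 with 1 left out. The 430 probe sets that differed between cows were 259 after subtracting array medians, 1089 with weights, 65 without the 3 arrays, 734 after the filter on SD and 101 to 375 with 1 left out.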
